A study of Mus musculus with 4 samples.

Results

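The genes described here are 53 genes of DNA replication and nucleotide synthesis, chosen by name from the 27745 gene names on the array. They comprise the MCM helicase, the factors that license and fire replication origins, the sliding clamp with its loader, the replicative polymerases, the proteins of the lagging strand and the enzymes that make deoxynucleotides, pyrimidines and purines. Transcript levels come from 4 mouse arrays, each hybridised with a single Cy3-labelled sample. Of these, 2 held RNA of B220+ splenocytes of female C57BL/6N mice, B220 being the CD45 form on the surface of B cells. The other 2 held RNA of B-cell lymphoma lines, likewise labelled female and C57BL/6N, that had been derived from mice transgenic for dopamine receptor 3, and each line was on 1 array. The labels do not give the age of the mice, the promoter of the transgene or the passage of the lines. The groups differ at once in malignancy, in growth as a line against fresh spleen cells and in the transgene, and these cannot be told apart.

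Before a cell divides, the origin recognition complex marks the sites where replication may begin, and Cdc6 and Cdt1 load the ring-shaped MCM2-7 helicase there. In S phase 2 kinases, Cdc7 with Dbf4 and the cyclin E kinase, turn the loaded helicase on, with Cdc45, Mcm10 and the GINS complex as partners. Polymerases then copy both strands behind it, held on DNA by the PCNA clamp, while ribonucleotide reductase and thymidylate synthase supply deoxynucleotides. Resting lymphocytes keep many of these genes low, and many are known targets of E2F factors, which are released when a cell commits to division.

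Most of these genes were more abundant in both lymphoma lines. All 53 were well above background on all 4 arrays, so all were tested and no fold is a bound. Of the 53, 44 (83.0%) were called higher in the lines, 1 was called lower and 8 did not pass (limma, Benjamini-Hochberg adjusted p under 0.05 over all 18316 tested genes). Of all tested genes 30.6% were called higher and 32.6% lower. Of all calls 48.4% were thus higher, and 63.2% when arrays were centred on the median, a scaling under which 45 of the 53 genes were called higher. Both lines lay above both splenocyte samples for 46 of the 53 genes, against 41.2% of all tested genes. The median log2 difference (lines minus splenocytes) was 1.64 for the 53 genes and −0.05 for all tested genes. At least a 2-fold increase was called for 38 genes, against 21.5% of all tested genes, and at least a 4-fold increase for 13, against 9.01%. With 2 arrays a group, a permutation of the samples cannot give a two-sided p below 0.333, so the calls rest on the spread that limma shares across genes, and the number of arrays limits the precision. The labels do not say that the samples of a group came from separate animals, so a p-value here covers only the variation among these arrays. In the splenocytes this variation may be technical. In the lymphoma group it is that between 2 lines, with technical variation included.

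Other marker lists also differed between the groups. Genes of dividing cells outside the 53 (10 of 10 tested, among them Mki67 and Plk1) were all called higher, with a median log2 difference of 2.50, and their summed level, in multiples of each array's 75th percentile, was 43.1 to 65.6 in the splenocytes and 216 to 254 in the lines. In such bulk samples, fewer cells in cycle and less RNA per cell cannot be told apart. All 8 B cell markers were well above background on every array, at a summed level of 457 to 595 in the splenocytes and 267 to 275 in the lines (5 called lower and 3 not called). Of 7 myeloid markers 6 were called lower and 1 higher, with a median log2 difference of −3.62. Their summed level was nonetheless 10.2 to 15.5 in the splenocytes and 35.4 to 35.8 in the lines, of which Adgre1 alone (Emr1 on the array) made up 35.3 and 35.7. Of 8 T cell markers 3 were called lower (Cd3d, Cd8a and Lck), 2 higher and 3 not called. Their sum of 5.68 to 7.75 against 11.8 to 13.6 in the lines rose through Cd3g (0.289 and 0.258 against 5.09 and 6.15) and Cd5 (1.12 and 0.794 against 5.37 and 5.73). Of 5 dendritic cell markers Itgax was called lower (at least 122-fold), Flt3 and Siglech higher (7.06-fold and 4.59-fold) and 2 were not called. Cst3, which was not called, carried most of their sum of 13.6 to 16.4 against 11.9 to 13.8. All 4 tested NK cell markers were called lower, with a sum of 1.14 to 1.19 against 0.0459 to 0.0611. Of 4 tested erythroid markers 2 were called lower and 2 not called (5.65 to 5.73 against 0.902 to 2.36), and of 4 plasma cell markers 3 were called higher and 1 not called (11.97 to 12.64 against 22.9 to 29.3). The markers Lyz2, S100a8, Itgax, Klrd1, Gzma, Cd8a and Alas2 were not well above background in either line. The part of these cells in the differences was not tested.

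**Figure D1:**
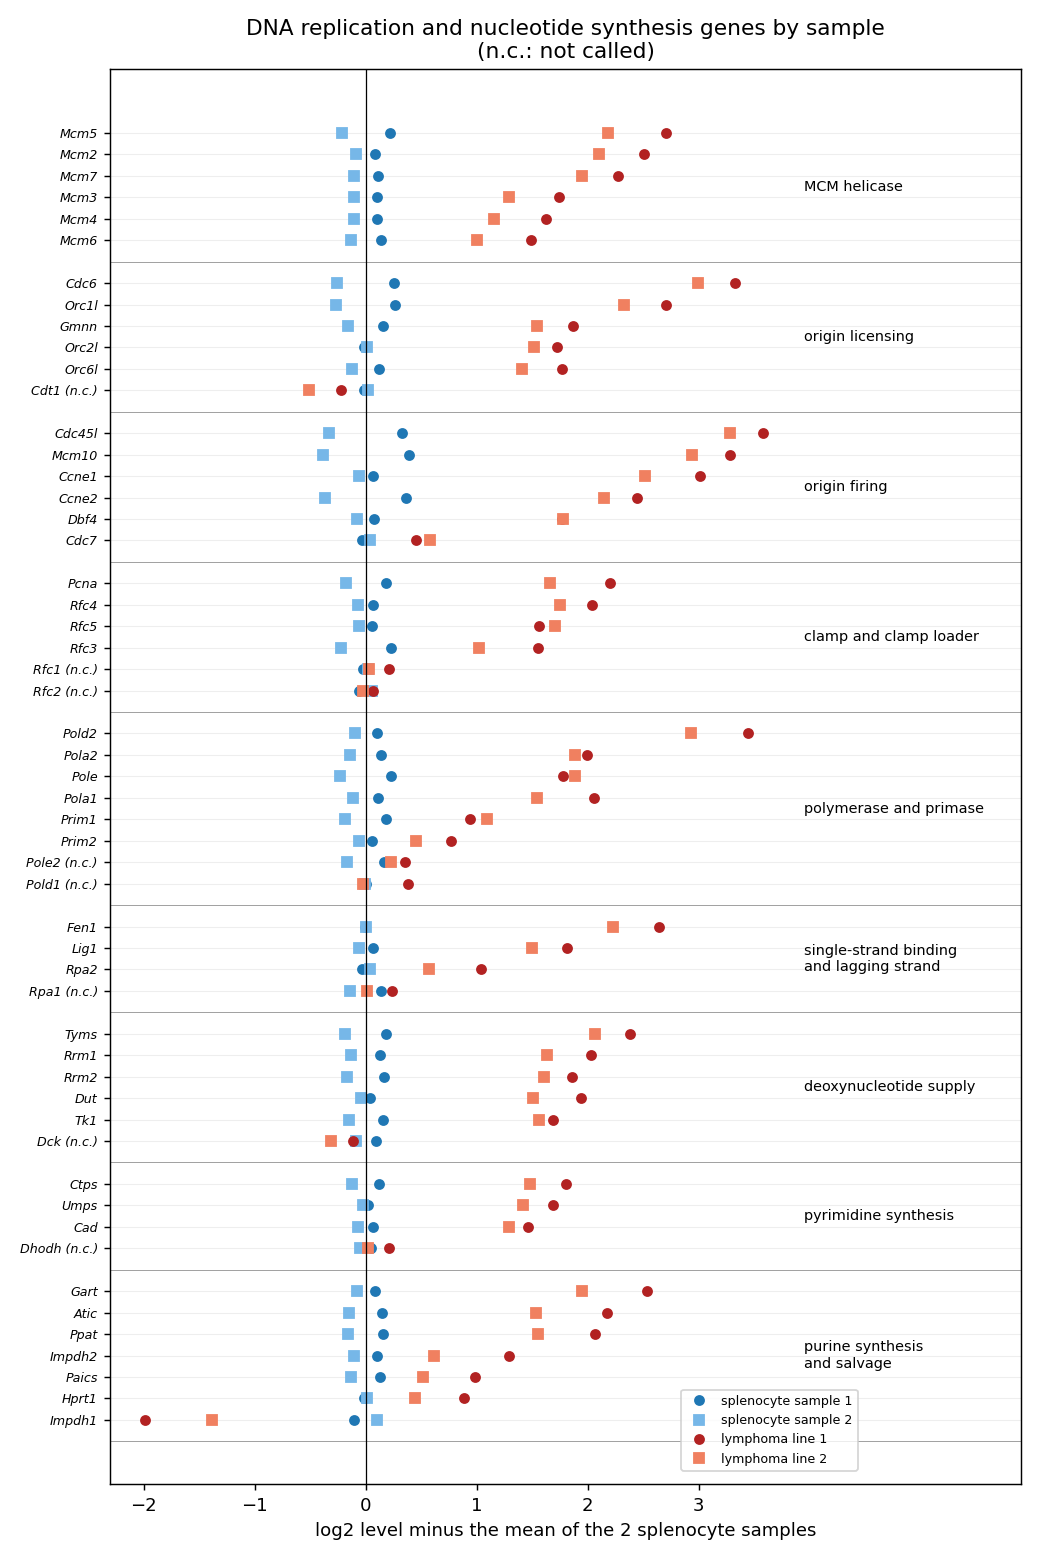
Level of each of the 53 genes on each array, as log2 level minus the mean of the 2 splenocyte samples (x axis), grouped by role and ordered by difference within a role. Circles are sample or line 1 and squares sample or line 2, blue for splenocytes and red for lines. For 46 genes both red points lie right of both blue points, and Impdh1 alone among called genes lies to the left.

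Transcripts of every helicase subunit were higher: all 6 MCM2-7 genes rose, by 2.37-fold to 5.44-fold. Levels are given as multiples of the 75th percentile of the array. Mcm5, a subunit of the ring, had levels of 9.24 and 6.83 in the splenocytes, against 51.9 in line 1 and 36.0 in line 2. The lines were thus high and the groups did not overlap (log2 difference 2.44 ± 0.27, SE, n = 2 against 2; limma adjusted p = 0.00245). Mcm6, another subunit, showed the smallest change, with 52.97 and 44.0 in the splenocytes and 136 and 96.7 in the lines (1.25 ± 0.23, SE; limma adjusted p = 0.0107). Between these came Mcm2 (4.94-fold), Mcm7 (4.33-fold), Mcm3 (2.86-fold) and Mcm4 (2.62-fold). Both lines exceeded both splenocyte samples for each of the 6 subunits.

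Of the 6 licensing genes, 5 rose and Cdt1 did not pass. Cdc6, the ATPase that loads the helicase, had levels of 0.460 and 0.322 in the splenocytes and 3.87 and 3.07 in the lines. This is 8.95-fold higher (log2 difference 3.16 ± 0.25, SE; limma adjusted p = 0.00109), from a probe at mm8 chromosome 11, 98737349 to 98737408. Orc1l, the largest subunit of the origin recognition complex (now Orc1), rose 5.72-fold, Orc2l and Orc6l, further subunits of it (now Orc2 and Orc6), rose 3.07-fold and 3.01-fold, and Gmnn, the inhibitor of Cdt1, rose 3.27-fold. Cdt1, the other loader of the helicase, had 46.3 and 47.5 in the splenocytes and 40.1 and 32.9 in the lines. Both lines lay below both splenocyte samples by little (−0.37 ± 0.17, SE; limma adjusted p = 0.120; probe at mm8 chromosome 8, 125459083 to 125459142). Its value ran from −0.54, a call under quantile normalization (limma adjusted p = 0.0252), to 0.04 when arrays were centred on the median, within a range of 0.0252 to 0.885 over its 15 alternatives.

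All 6 genes of origin firing rose, and they had the highest median of the 9 roles (2.53). Cdc45l, the helicase partner now named Cdc45, had the largest difference of the 53 genes. Its levels were 0.274 and 0.174 in the splenocytes and 2.62 and 2.12 in the lines, which is 10.8-fold (3.43 ± 0.28, SE; limma adjusted p = 0.00119). Mcm10, which helps to start the helicase, rose 8.65-fold. Its splenocyte levels of 3.06 and 1.78 were the farthest apart of the 53 genes on the log2 scale. Ccne1 and Ccne2, the E-type cyclins, rose 6.80-fold and 4.91-fold. Dbf4, the activating subunit of the Cdc7 kinase, rose 3.42-fold, whereas Cdc7 itself moved least. Cdc7 had levels of 1.45 and 1.52 in the splenocytes and 2.03 and 2.22 in the lines (1.43-fold, log2 difference 0.52 ± 0.14, SE; limma adjusted p = 0.0342). This call did not hold when any array was left out in turn (limma adjusted p = 0.0523 to 0.167, within 0.00616 to 0.167 over its 15 alternatives).

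Promoters of the 53 genes were read from RefSeq (GRCm38.p6, 250 bases before to 50 after each start), which held windows for 46 of them. An E2F-type string (TTTCCCGC, TTTGGCGC, TTTCGCGC or TTTGCCGC, either strand) stood in the windows of 13 of the 46 genes (28.3%), against 704 of 27025 genes (2.605%) in the whole table. Counted by windows of equal length, it was 13 of 55 (23.6%) against 744 of 32851 (2.265%). By role, 4 of 5 MCM genes, 3 of 5 licensing genes and 3 of 6 polymerase and primase genes held it, and none of the 6 genes of deoxynucleotide supply. The E-box CACGTG stood in 9 of 46 genes (19.6%, against 8.093% of all genes) and CCAAT, on either strand, in 24 (52.2%, against 41.1%), including all 5 MCM genes with a window. No E2F-type string contains either of the others. Among the 46 genes the median log2 difference was 1.66 for the 13 with it and 1.64 for the 33 without it, and 10 of 13 and 29 of 33 were called higher. Such matches are descriptions of letters, not of bound factors.

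The bases before the start of the 3 genes with an E2F-type match and the largest increases follow, then those of the 2 nucleotide genes with CACGTG and the largest increases. Each is read 5′ to 3′ along the gene's strand, and capitals mark the matched string, which in Mcm5 is a pair of overlapping matches.
Cdc6, chr11:98907901-98908150, plus strand: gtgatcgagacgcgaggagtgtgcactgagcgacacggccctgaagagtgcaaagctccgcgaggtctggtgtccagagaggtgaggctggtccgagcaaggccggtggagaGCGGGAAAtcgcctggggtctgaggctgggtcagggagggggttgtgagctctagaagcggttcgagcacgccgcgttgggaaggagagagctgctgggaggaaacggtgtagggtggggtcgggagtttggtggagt
Orc1l, chr4:108579204-108579453, plus strand: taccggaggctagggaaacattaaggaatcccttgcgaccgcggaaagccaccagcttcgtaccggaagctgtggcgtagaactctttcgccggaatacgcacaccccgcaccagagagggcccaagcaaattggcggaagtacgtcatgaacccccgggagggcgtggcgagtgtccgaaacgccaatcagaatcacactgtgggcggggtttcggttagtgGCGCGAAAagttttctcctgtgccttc
Mcm5, chr8:75109259-75109508, plus strand: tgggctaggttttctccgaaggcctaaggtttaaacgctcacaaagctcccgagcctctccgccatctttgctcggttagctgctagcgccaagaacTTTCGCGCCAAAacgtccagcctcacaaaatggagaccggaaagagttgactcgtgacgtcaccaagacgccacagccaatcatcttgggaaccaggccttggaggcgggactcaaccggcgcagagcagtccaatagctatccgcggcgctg
Tyms, chr5:30073626-30073875, minus strand: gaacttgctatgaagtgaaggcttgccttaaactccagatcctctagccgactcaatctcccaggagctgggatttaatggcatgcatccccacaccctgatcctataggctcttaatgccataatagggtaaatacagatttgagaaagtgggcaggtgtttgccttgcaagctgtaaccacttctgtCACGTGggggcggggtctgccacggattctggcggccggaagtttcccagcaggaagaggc
Atic, chr1:71556906-71557155, plus strand: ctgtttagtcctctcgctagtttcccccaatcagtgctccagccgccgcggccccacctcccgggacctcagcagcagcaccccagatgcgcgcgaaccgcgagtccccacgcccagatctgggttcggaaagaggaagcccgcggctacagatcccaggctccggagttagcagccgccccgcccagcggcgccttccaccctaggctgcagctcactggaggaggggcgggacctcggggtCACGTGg
The match began 138 bases before the start in Cdc6, 27 in Orc1l and 153 in Mcm5, and the E-box 61 bases before it in Tyms and 7 in Atic. Shorter stretches of 60 bases show the same kind of string before the start of 2 more helicase subunits, chosen after the matches were seen.
Mcm6, chr1:128359782-128359841, minus strand: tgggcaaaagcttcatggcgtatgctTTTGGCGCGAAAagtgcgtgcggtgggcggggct
Mcm7, chr5:138172015-138172074, minus strand: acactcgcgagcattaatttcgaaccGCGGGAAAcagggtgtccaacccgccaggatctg
In Mcm6 the capitals cover a pair of overlapping matches, as in Mcm5. The windows also held a match outside the stretch shown, TTTGGCGC in Mcm6 and TTTCGCGC in Mcm7. These subunits rose 2.37-fold and 4.33-fold.

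Of the clamp and its loader, 4 of 6 genes rose. Pcna, the sliding clamp, had levels of 39.2 and 30.5 in the splenocytes and 159 and 110 in the lines (3.82-fold, log2 difference 1.93 ± 0.26, SE; limma adjusted p = 0.00407). Replication factor C, the loader, divided by subunit. Rfc4, Rfc5 and Rfc3, small subunits, rose 3.71-fold, 3.11-fold and 2.44-fold. Rfc1, the large subunit, had 12.2 and 12.6 in the splenocytes and 14.3 and 12.7 in the lines (0.12 ± 0.15, SE; limma adjusted p = 0.509). Rfc2, a small subunit, had 46.7 and 50.5 against 51.0 and 47.9, so its groups overlapped (0.02 ± 0.14, SE; limma adjusted p = 0.896). Under quantile normalization the values were −0.02 for Rfc1 and −0.12 for Rfc2. Scaled on probes bright on all arrays they were −0.0055 and −0.10. That of Rfc2 was also negative without splenocyte sample 1 (−0.03) or lymphoma line 1 (−0.02). None of these values was called.

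Among polymerase and primase genes 6 of 8 rose, and subunits of polymerase delta showed the largest and the smallest change. Pold2, its second subunit, had levels of 1.19 and 1.04 in the splenocytes and 12.1 and 8.48 in the lines, which is 9.12-fold (3.19 ± 0.23, SE; limma adjusted p = 0.000921; probe at mm8 chromosome 11, 5773086 to 5773145). Pold1, the catalytic subunit of the same enzyme, had 24.0 and 23.8 in the splenocytes and 31.1 and 23.5 in the lines. Line 1 alone was high, the groups overlapped and the test did not pass (0.18 ± 0.19, SE; limma adjusted p = 0.459). Its value was −0.04 under quantile normalization and −0.02 without lymphoma line 1, neither called. Pole, the catalytic subunit of polymerase epsilon, rose 3.56-fold, while Pole2, its second subunit, had 0.889 and 0.704 against 1.01 and 0.925 (0.29 ± 0.18, SE; limma adjusted p = 0.227). The value of Pole2 was called under centring on the median (0.70, limma adjusted p = 0.0355, within 0.0355 to 0.697 over its 15 alternatives). Polymerase alpha-primase, which lays the primers, had every subunit called higher, by amounts that differed. Pola2 and Pola1 rose 3.83-fold and 3.49-fold, and the primase subunits Prim1 and Prim2 2.02-fold and 1.53-fold.

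Of the 4 genes for single-strand binding and the lagging strand, 3 rose. Fen1, the nuclease that trims Okazaki fragments, had levels of 2.16 and 2.17 in the splenocytes and 13.5 and 10.1 in the lines (5.39-fold, 2.43 ± 0.20, SE; limma adjusted p = 0.00114). Lig1, the ligase that joins the fragments, rose 3.15-fold, and Rpa2, a subunit of the single-strand binding protein RPA, rose 1.74-fold. Rpa1, the large subunit of RPA, had 7.35 and 6.07 against 7.86 and 6.72, which overlapped (0.12 ± 0.18, SE; limma adjusted p = 0.583). Its value was −0.04 under quantile normalization, −0.0042 when scaled on probes bright on all arrays and −0.01 without splenocyte sample 2, none of them called.

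The other subunits of these complexes were taken from the wider list of replication genes after the values were seen. With them included, some complexes had every subunit called higher and others only a part. All 6 MCM2-7 genes, all 4 genes of polymerase alpha-primase and all 4 GINS genes rose, GINS by 1.43 to 2.60 on the log2 scale. Of polymerase delta, Pold2 rose, Pold1 and Pold3 (0.38 ± 0.16, SE; limma adjusted p = 0.103) did not pass, and Pold4, the small accessory subunit, fell by 1.97 on the log2 scale (limma adjusted p = 0.00171). The 4 differences of polymerase delta spanned 5.16 log2 units, against 1.20 over the 6 MCM subunits and 1.17 over GINS. Of the origin recognition complex 5 genes rose and Orc4l fell by 0.47 (limma adjusted p = 0.0404), which is small. The rises of Orc3l (0.50, limma adjusted p = 0.0469) and Orc5l (0.57, limma adjusted p = 0.0229) were about as small. RPA and ribonuclease H2, which removes primer RNA, had 2 of 3 subunits called higher each, polymerase epsilon 2 of 4 and replication factor C 3 of 5. Whether a complex differs from another in its spread was not tested.

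**Figure D2:**
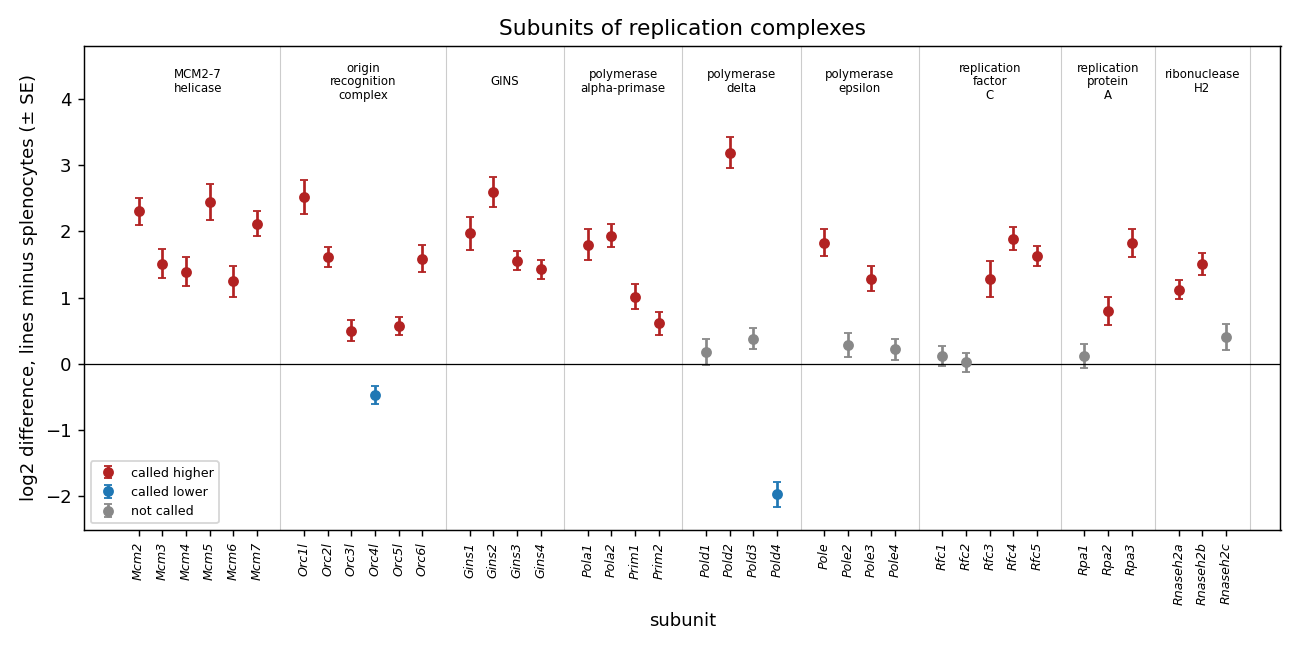
Log2 difference (lines minus splenocytes) of each subunit of 9 replication complexes, with the standard error of the fit (n = 2 against 2). Red points were called higher, blue lower and grey not called. The MCM2-7, GINS and polymerase alpha-primase subunits are all red, while polymerase delta runs from −1.97 for Pold4 to 3.19 for Pold2.

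Deoxynucleotide supply rose in 5 of its 6 genes. Tyms, thymidylate synthase, had levels of 4.26 and 3.31 in the splenocytes and 19.6 and 15.7 in the lines (4.67-fold, 2.22 ± 0.21, SE; limma adjusted p = 0.00171). Rrm1 and Rrm2, the large and small subunits of ribonucleotide reductase, rose by like amounts, 3.56-fold and 3.33-fold. Dut, which removes dUTP, rose 3.30-fold and Tk1, the cytosolic thymidine kinase, 3.07-fold. Dck, deoxycytidine kinase, which salvages deoxynucleosides, had 4.12 and 3.64 in the splenocytes and 3.57 and 3.13 in the lines. Both lines lay below both splenocyte samples, and the test did not pass (−0.21 ± 0.16, SE; limma adjusted p = 0.301). Its value was 0.19 when arrays were centred on the median.

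In de novo pyrimidine synthesis 3 of 4 genes rose by similar folds. Ctps, CTP synthase, had levels of 7.78 and 6.58 in the splenocytes and 25.0 and 20.0 in the lines (3.13-fold, 1.64 ± 0.19, SE; limma adjusted p = 0.00288). Umps, which makes UMP, rose 2.93-fold, and Cad, the enzyme of the opening steps, rose 2.60-fold. Dhodh, the mitochondrial dehydrogenase between Cad and Umps, had 2.75 and 2.56 against 3.06 and 2.70, which overlapped (0.11 ± 0.15, SE; limma adjusted p = 0.544), and −0.01 when scaled on probes bright on all arrays. Umps was the member with probes called in opposite directions: its 2 brighter probes rose by 1.55 and 2.50 on the log2 scale, while a dim probe, at 0.0447 and 0.0432 in the splenocytes and 0.0215 and 0.0228 in the lines, fell by 0.99 (limma adjusted p over probes = 0.00461).

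Purine synthesis held the single gene called lower. Gart, which carries several steps of the pathway, had levels of 2.62 and 2.34 in the splenocytes and 14.4 and 9.55 in the lines (4.73-fold, 2.24 ± 0.25, SE; limma adjusted p = 0.00246). Atic, which completes IMP, rose 3.62-fold, and Ppat, the committing enzyme, rose 3.50-fold. Paics, which lies beside Ppat on chromosome 5 on the opposite strand, rose 1.68-fold. Impdh2, the inducible IMP dehydrogenase of the guanine branch, rose 1.93-fold. Hprt1, the purine salvage enzyme now named Hprt, had 39.9 and 40.6 in the splenocytes and 74.6 and 54.7 in the lines (1.59-fold, 0.67 ± 0.20, SE; limma adjusted p = 0.0450). Impdh1, the other IMP dehydrogenase, was read by 1 probe, so no other probe checks its call. Its levels were 3.54 and 4.09 in the splenocytes and only 0.960 and 1.45 in the lines. It fell by 1.69 on the log2 scale (± 0.25, SE; limma adjusted p = 0.00569; probe at mm8 chromosome 6, 29150452 to 29150511), a call that held in all 15 alternatives (−1.99 to −1.28).

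The wider list of related genes held changes in both directions. Of 31 tested replication factors outside the 53, 25 rose, 2 fell and 4 did not pass. Of 32 tested nucleotide enzymes outside the 53, 17 rose, 11 fell and 4 did not pass. Over all tested genes 30.6% were called higher and 32.6% lower, so the share of these enzymes that fell is near that of all genes. A difference between these groups of genes was not tested. The largest increases were in Mthfd2, a mitochondrial folate enzyme (20.5-fold), Dctd, dCMP deaminase (11.7-fold), Shmt1 and Shmt2, serine hydroxymethyltransferases that feed one-carbon units (increases of 3.25 and 3.08 on the log2 scale), and Uck2, a uridine-cytidine kinase (8.81-fold). The largest decreases were in Xdh, which oxidises purines (at least 10.5-fold, as it was not well above background in the lines), Nt5e, the surface nucleotidase CD73 (9.57-fold), and Samhd1, a dNTP hydrolase (8.82-fold). Tk2, the mitochondrial thymidine kinase, fell 5.25-fold and Uckl1, a kinase-like homologue of Uck2, fell 5.21-fold. Their limma adjusted p-values ran from 0.000227 for Mthfd2 to 0.00280 for Shmt1. Cda, Upp1, Gda and Dpyd were too dim to test, and Claspn was not analysed here.

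Several reactions are served by a pair of related genes, and in 4 pairs, chosen after the values were seen, a gene of one sign stood beside a gene of the other. Rrm2 rose 3.33-fold while Rrm2b, the small reductase subunit of resting and damaged cells, fell 2.13-fold. Tk1 rose 3.07-fold beside the fall of Tk2. Ctps rose 3.13-fold while Ctps2 fell 1.56-fold, and Impdh2 rose while Impdh1 fell. Dck did not pass while Dguok, the mitochondrial deoxyguanosine kinase, fell 2.74-fold, and Uck2 rose while Uck1 did not pass (0.19 ± 0.16, SE; limma adjusted p = 0.358). Other pairs of related genes rose together: Ccne1 and Ccne2 (log2 differences of 2.76 and 2.29), Shmt1 and Shmt2 (3.25 and 3.08) and Nme1 and Nme2, nucleoside diphosphate kinases (2.47 and 0.84). Since the pairs were picked for their values, they are given as a description with no test.

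**Figure D3:**
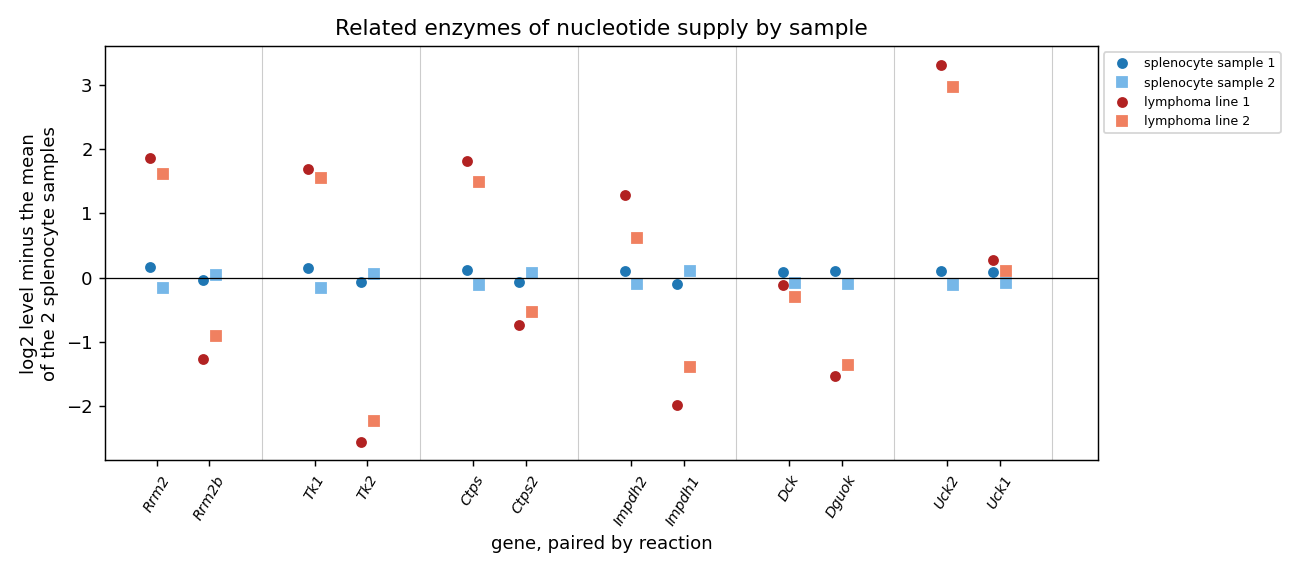
Level on each array of 6 pairs of related enzymes, as log2 level minus the mean of the 2 splenocyte samples (y axis), with circles for sample or line 1 and squares for sample or line 2. Rrm2, Tk1, Ctps and Impdh2 lie above 0 in both lines, and Rrm2b, Tk2, Ctps2 and Impdh1 below.

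Within the groups the 53 genes also leaned one way. Line 1 exceeded line 2 for 47 of them, against 50.1% of all tested genes, with a median log2 difference of 0.32 against 0.00065. Splenocyte sample 1 exceeded sample 2 for 44, against 48.8% of all tested genes, with a median of 0.21 against −0.0066. Of 7831 tested genes with a mean log2 level above 0, line 1 was higher in 61.3% (median 0.08), against 87.5% of the 48 members at such levels. All 6 MCM genes, all 6 licensing genes and all 6 genes of deoxynucleotide supply were higher in line 1, and Impdh1 was the member farthest the other way (−0.60). The 10 genes of dividing cells were likewise all higher in line 1 (median 0.29) and in splenocyte sample 1 (median 0.54). The median difference between the lines was 0.21 after quantile normalization and 0.47 after centring on the median. Each line has 1 array, so a difference between the lines has no replicate check and was not tested, and the array of splenocyte sample 2 was the dimmest as a whole, with a 75th percentile of processed signal of 514 against 1078 to 1315 on the others.

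**Figure D4:**
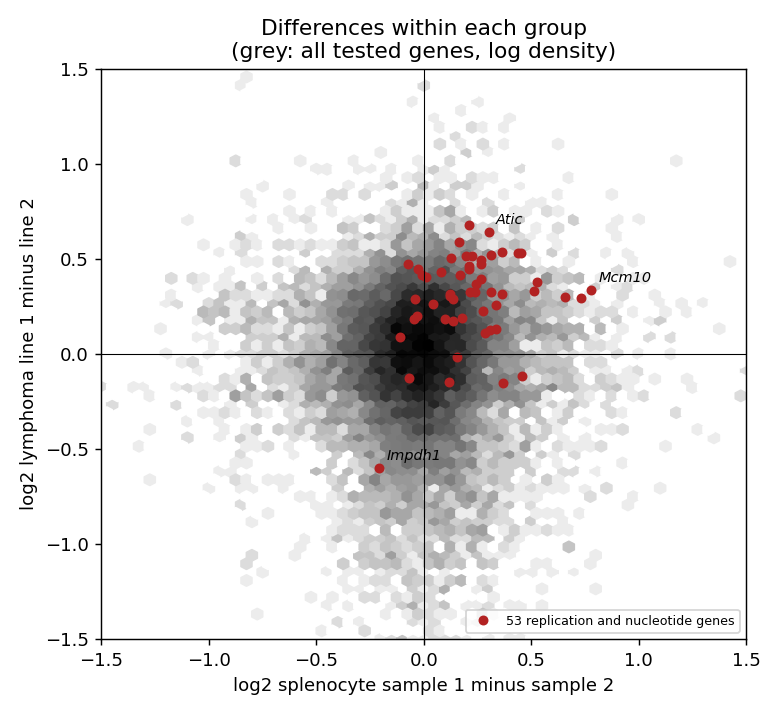
Log2 difference between lines 1 and 2 (y axis) against that between splenocyte samples 1 and 2 (x axis), for the 53 genes (red) and all 18316 tested genes (grey, darker for more genes). Of the 53, 47 lie above the horizontal line and 44 right of the vertical line.

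The calls of 35 of the 44 genes that rose held in all 15 alternatives, and the smallest fold among these was 2.60. The other 9 rose by 1.43-fold to 2.44-fold and lost the call somewhere. Besides Cdc7, these were Prim2, Paics, Impdh2 and Hprt1, which did not pass without splenocyte sample 1, without splenocyte sample 2 or without lymphoma line 1. They and Cdc7 were also lost when scaled on probes bright on all arrays and without the filter on dim probes. Paics was further lost with the mean over probes, and Prim2 and Hprt1 with the replicate number as a block. Rpa2 was lost with the same 3 arrays left out and without the filter on dim probes. Rfc3 was lost without splenocyte sample 2 (limma adjusted p = 0.0669) or lymphoma line 1 (0.05004), and Mcm6 and Prim1 without splenocyte sample 2 (0.0550 and 0.0566). Other probes gave a further reading of 19 genes. Of their 26 other tested probes 20 had the same call as the probe used, and in 13 genes all probes had the same call. Those of Tyms (−0.59), Pola2 (−0.58) and Cad (0.37) that were not called had levels under 0.05, and the second probes of Ppat (0.74) and Paics (0.52) were not called either.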

How the data were processed

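Single-colour Agilent arrays (Cy3) were scanned for 4 samples, 2 per group, all on 1 slide in 1 scan. The deposited intensity is the processed signal of Agilent Feature Extraction (version 9.5 per the submitters' processing notes, 9.5.1.1 per the file headers), background-subtracted by the authors. Probe positions are on mm8, per the file headers. The authors' deposited table of scaled processed signal, taken to log2 here, served as an alternative.

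Log2 signals were scaled to each array's 75th percentile over non-control spots. Flagged spots were left out, probes well above background on at least 2 arrays were kept, and each gene took its probe of highest mean. The lines were compared with the splenocytes for 18316 genes in limma 3.58.1 (R 4.3.3), tested on simulated data, with Benjamini-Hochberg adjustment at 0.05. Levels are multiples of the percentile. No spot was saturated.

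Members and lists were chosen with earlier results of these data known. Values on every array are given for the largest and smallest change in each role, for members not called or called lower, and for members with opposed probes. Of related genes the 5 largest increases and 5 largest decreases are named. Promoters are from RefSeq, GRCm38.p6.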

Additional observations from a re-analysis of the deposited data

How the results depend on the processing

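Over 15 alternatives, 35 to 45 of the 53 genes were called higher, against 44. Of 795 gene results 755 kept their status as called or not called, 38 lost the call, 2 gained it and none that was called reversed. The 755 include changes of sign in genes that were not called (Cdt1, Dck, Dhodh, Pold1, Rfc1, Rfc2 and Rpa1). Leaving out 1 array left 35 to 43 called higher, with a median log2 difference of 1.52 to 1.77. Quantile normalization gave a median of 1.49, a median difference between the lines of 0.21 and 2 genes called lower, with Cdt1 beside Impdh1. Centring on the median gave 2.05 and 0.47, and scaling on probes bright on all arrays a median of 1.52 with 39 called higher. These scalings moved the median of all genes from −0.05 to 0.10, 0.36 and −0.17, and normexp background correction to −0.31. Without the filter on dim probes, 38 genes were called higher. Adjusted p-values (limma) over all alternatives ran from 0.0117 to 0.169 for Prim2, 0.00858 to 0.116 for Rpa2, 0.0152 to 0.180 for Paics, 0.0127 to 0.144 for Impdh2 and 0.0160 to 0.152 for Hprt1. With the replicate number as a block 41 genes were called higher, Cdc7, Prim2 and Hprt1 being lost. The labels do not say that a number marks a shared source, so the numbers were taken not to pair samples. Deviations of same-numbered samples correlated at 0.0136 over all genes and 0.230 over the 53. A slide or scan block was not run, since there was 1 of each. The cause of these shifts was not tested.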

Other observations

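The 53 genes lie on 15 chromosomes in the RefSeq table, and 13 of them are on chromosome 5. Among these is the neighbouring pair Ppat and Paics, on opposite strands, of which Ppat rose 3.50-fold and Paics 1.68-fold.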
